A study of Mus musculus with 12 samples.

Results

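The genes described here encode nuclear subunits of oxidative phosphorylation, the 5 complexes of the inner mitochondrial membrane that turn reducing equivalents into ATP. They were chosen by symbol on the array: Ndufa, Ndufb, Ndufc, Ndufs and Ndufv for NADH dehydrogenase (complex I), Sdha to Sdhd for succinate dehydrogenase (complex II), Uqcr for the cytochrome bc1 complex (complex III), Cox4i, Cox5, Cox6, Cox7 and Cox8 for cytochrome c oxidase (complex IV) and Atp5 for ATP synthase (complex V). Assembly factors were left out, as were the muscle isoforms Cox6a2, Cox7a1 and Cox8b, which are set beside the others further on. Subunits under other symbols were not counted. Of 18193 genes that a probe set names alone, 79 met the rule, and 77 of them were bright enough to be tested among 13145 tested genes. Each gene was represented by its brightest probe set. Ndufa4 and Ndufa4l2 were counted with complex IV, where the Ndufa4 protein is now placed.

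Electrons from NADH enter at complex I and those from succinate at complex II. They pass through ubiquinone to complex III and through cytochrome c to complex IV, which reduces oxygen, and the proton gradient built on the way drives complex V. Heart muscle is among the tissues richest in mitochondria, whereas pluripotent stem cells hold few and immature mitochondria and rely strongly on glycolysis.

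CGR8, a mouse embryonic stem cell line that grows without feeder cells, was followed through 4 stages, and RNA of 3 samples a stage was hybridized to 12 arrays of the Affymetrix Mouse 430 2.0 type. ES-LIF(+) cells were kept in 7.5% serum with leukemia inhibitory factor (LIF), which holds them undifferentiated, and ES-LIF(-) cells were sampled 48 h after it was withdrawn. Cardiopoietic cells (CP) and cardiomyocytes (CM) came from stem cells stimulated with a cocktail of growth factors and interleukins, with TNFα (30 ng/ml) and 3% serum over the next 5 days for CP, or 20% serum alone over 9 days for CM, and both were enriched on Percoll density gradients. Serum, TNFα, time and gradient therefore changed together with the stage and cannot be told apart from it, and all stages come from 1 cell line. RNA was taken from whole populations, so that fewer cells of a type and less RNA per cell cannot be told apart.

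The stage labels were checked against marker genes. The summed signal of 9 cardiomyocyte markers was 896 to 1092 in ES-LIF(+), 1092 to 1505 in ES-LIF(-), 2114 to 2466 in CP and 103154 to 117644 in CM. That of 7 pluripotency markers was 75500.1 to 80640 in ES-LIF(+), 56155 to 59609 in ES-LIF(-), 60451 to 67350.0 in CP and 17676 to 24991 in CM. The markers were split between CP and ES-LIF(-). Dppa5a, Zfp42, Nanog and Esrrb had higher means in CP than in ES-LIF(-). Pou5f1, Tdgf1 and Utf1 had lower ones, at 6775, 5517 and 4146 in CP, against 11362, 9899 and 6965. None of these 7 was below the array median on all arrays of any stage. Markers of other cell types moved too. Those of 7 fibroblast and mesenchymal genes summed to 1007 to 1456 in ES-LIF(+), 1159.5 to 1669.8 in ES-LIF(-), 93689 to 100398 in CP and 49866 to 50888 in CM. Those of 4 smooth muscle genes summed to 3487 to 4728 in ES-LIF(+), 3987 to 4756 in ES-LIF(-), 28633 to 32904 in CP and 58445 to 67726 in CM, and 4 erythroid genes spanned 627 to 17563 between CM arrays. The part of this cell mixture in the results below was not tested. The median probe set read 101 to 111 on the ES-LIF(+) arrays, 104 to 110.2 on ES-LIF(-), 129 to 136 on CP and 128 to 144 on CM arrays.

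Of the 77 tested subunit genes, 71 differed across the 4 stages (limma moderated F, adjusted p under 0.05), against 73.1% of all tested genes. The exceptions were Ndufs8, Cox4i2, Cox5a, Cox8c, Ndufa4l2 and Atp5e. The mean log2 value of the 77 genes was 12.28 ± 0.021 in ES-LIF(+), 12.25 ± 0.0042 in ES-LIF(-), 12.15 ± 0.043 in CP and 12.55 ± 0.023 in CM (SD, n = 3 each), and their summed signal was 1.57% of the array's total in ES-LIF(+), 1.51% in ES-LIF(-), 1.41% in CP and 1.90% in CM. No CP array overlapped any array of another stage in this mean, and neither did any CM array. By stage means, 45 of the 77 genes (58.4%) were lowest in CP, against 12.7% of all tested genes, and 59 (76.6%) were highest in CM, against 34.6%. Both held for 35 genes (45.5%), against 3.72% of all tested genes. The shares are descriptions, and genes of 1 pathway are not independent of each other.

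**Figure D1:**
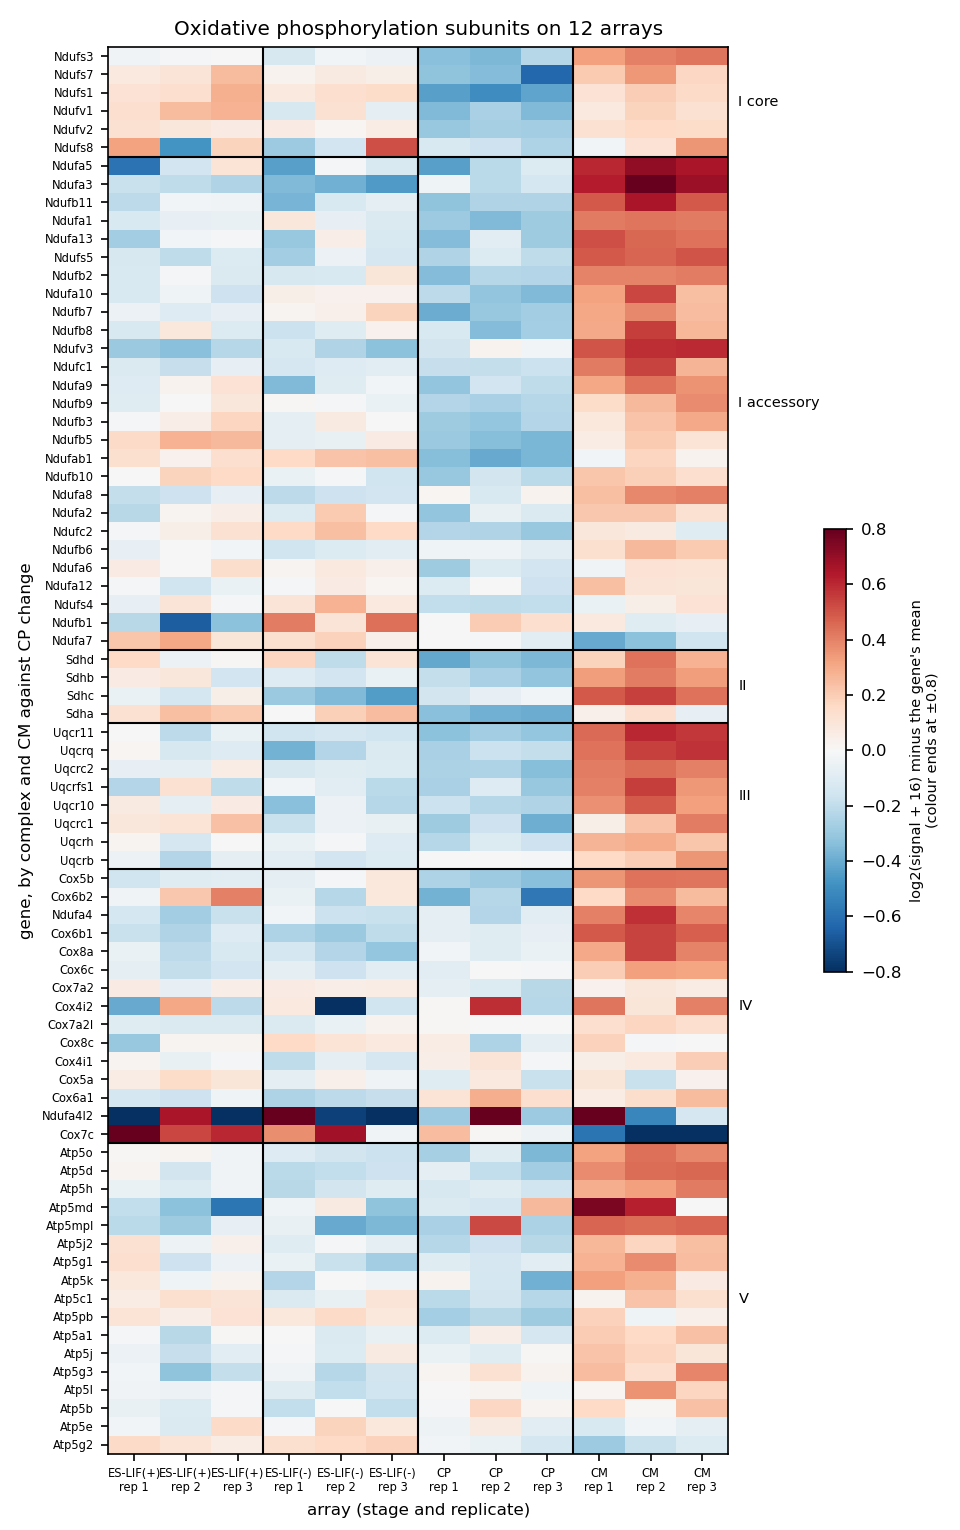
Each row is 1 of the 77 tested subunit genes, grouped by complex and sorted by the CM against CP change, and each column is 1 of the 12 arrays. Colour gives log2(signal + 16) minus the gene's mean over all arrays, with red above and blue below it and the scale ending at 0.8 either way. The CP columns are mostly blue and the CM columns mostly red in complexes I to III, with Ndufa7 and Cox7c blue in CM.

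The array scaling bears on the direction of some of these results, since the median probe set was brighter in CP and CM than in the stem cells. With the arrays set to equal medians, 66 genes (85.7%) were lowest in CP, against 19.3% of all tested genes, but only 35 (45.5%) were highest in CM, against 25.3%. Relative to the array median the genes' mean was 5.34 ± 0.078 in ES-LIF(+), 5.30 ± 0.031 in ES-LIF(-), 4.93 ± 0.075 in CP and 5.30 ± 0.10 in CM (SD, n = 3 each). CP was thus the lowest stage under both scalings, while the distance between CM and ES-LIF(+) seen with the deposited values was gone after centring.

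**Figure D2:**
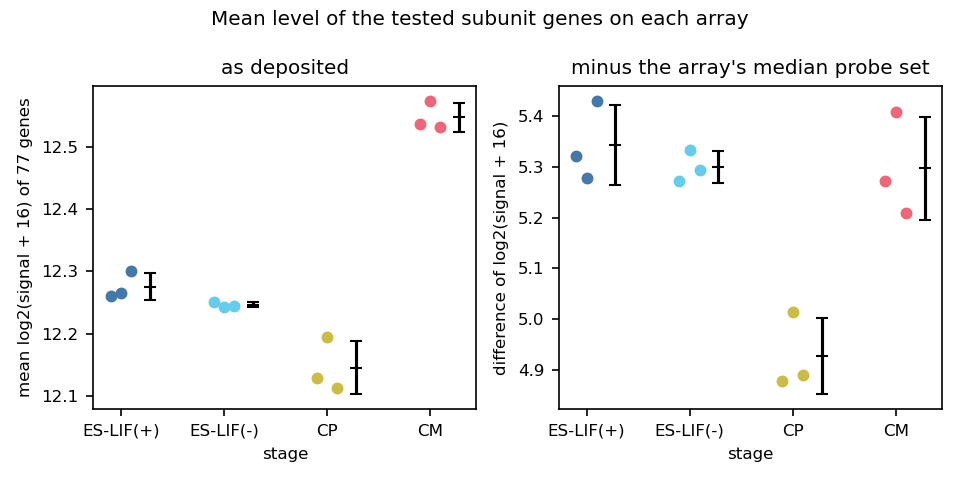
Points are the mean log2(signal + 16) of the 77 tested subunit genes on each array, by stage, with the stage mean and SD (n = 3) beside them. On the left, as deposited, the means are 12.28, 12.25, 12.15 and 12.55 in stage order. On the right, after subtraction of the array's median probe set, CP is again lowest at 4.93, and CM (5.30) lies within the range of ES-LIF(+) (5.34).

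Genes of this pathway are known to carry binding sites for shared regulators in their promoters, so the promoter sequences are shown for 3 members, each with a match to a different motif in the bases before its start. RefSeq promoter windows (mouse build GRCm38.p6, 250 bases before to 50 after a listed start) were matched for 65 of the 79 genes. For Atp5g3 the listed start, and with it the window printed below, lies inside the annotated gene (chr2:73908447-73912464). Letters were searched on both strands: GCGCATGCG for NRF1 (nuclear respiratory factor 1), CCGGAAGT for GABP, an ETS factor, TCAAGGTCA for the estrogen-related receptor ERR alpha and AAGATGGCG for YY1. NRF1 letters were found in 7 genes (10.8%, against 1.95% of 27025 genes in the table), GABP letters in 5 (7.69%, against 4.31%), ERR alpha letters in 2 (3.08%, against 0.466%) and YY1 letters in 6 (9.23%, against 1.64%). At least 1 of the motifs stood in 19 of the 65 genes (29.2%, against 7.93%). The shares set beside the members here cover all 27025 genes with a promoter window, tested on the arrays or not. Among the genes called higher in CM against CP, described below, 26 had a promoter window, as did 36 genes not called. NRF1 letters stood in 1 of the 26 and 6 of the 36, GABP letters in 2 and 3, ERR alpha letters in 1 and 1, and YY1 letters in 3 and 3. A match describes letters and not occupancy. In the 250 bases before the start, read on the gene's strand with the match in capitals, Uqcr11 holds GABP letters (its window also holds NRF1 letters, across the start), Cox6a1 NRF1 letters that read alike on both strands and were counted once, and Atp5g3 the reverse complement of the ERR alpha letters:
Uqcr11 (chr10:80406822-80407071, minus strand): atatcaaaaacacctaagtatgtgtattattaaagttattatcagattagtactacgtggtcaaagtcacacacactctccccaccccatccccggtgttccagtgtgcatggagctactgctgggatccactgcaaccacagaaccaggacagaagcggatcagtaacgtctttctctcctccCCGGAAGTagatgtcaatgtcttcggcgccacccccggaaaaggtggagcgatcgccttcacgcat
Cox6a1 (chr5:115348959-115349208, minus strand): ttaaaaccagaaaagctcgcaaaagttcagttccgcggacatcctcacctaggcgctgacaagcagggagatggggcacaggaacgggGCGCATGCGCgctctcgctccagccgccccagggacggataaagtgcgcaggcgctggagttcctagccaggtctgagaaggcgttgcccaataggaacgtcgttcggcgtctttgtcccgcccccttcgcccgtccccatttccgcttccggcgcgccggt
Atp5g3 (chr2:73911327-73911576, minus strand): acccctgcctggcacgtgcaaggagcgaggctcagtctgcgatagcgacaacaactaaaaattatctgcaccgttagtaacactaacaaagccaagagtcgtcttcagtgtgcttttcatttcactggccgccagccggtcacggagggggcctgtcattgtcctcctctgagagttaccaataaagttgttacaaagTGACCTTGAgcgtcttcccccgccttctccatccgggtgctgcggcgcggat

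CM against CP had the highest count of called subunit genes, under each of the 3 array scalings described below. A gene was called at an adjusted p under 0.05 in limma, over all tested probe sets, and a fold above 1.5, which is 0.58 on the log2 scale. In CM 29 of 77 were called higher than in CP and 1 lower, against 9.04% and 10.4% of all tested genes. Without the fold threshold 60 were higher and 2 lower, against 14.8% and 21.9%. Their median log2 fold change was 0.45, a fold of 1.36, where the median of all tested genes was -0.04, and 70 of 77 were above 0. This comparison depended little on the array scaling: 20 were called higher with equal medians and 28 with quantile normalization, against 8.28% and 9.30% of all tested genes. The members' medians were 0.41 and 0.46 beside medians of -0.08 and -0.06 for all tested genes. Among 67 further tested probe sets of 43 of these genes, 60 had the sign of the probe set used, 46 were higher and 2 lower by adjusted p, and their median was 0.44. The count of 29 was 22 to 31 when any 1 array was left out, with 22 without CM replicate 2. The 15 genes with a mean signal above 10000 had a median of 0.24 with 2 called higher, and the other 62 a median of 0.48 with 27 called. The part of signal strength in this difference was not tested.

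The medians of complexes I, II and III lay between 0.50 and 0.63. The 6 core subunits counted for complex I mostly hold its flavin or an iron-sulfur centre. Of these, Ndufs3 (0.69), Ndufs7 (0.67) and Ndufs1 (0.61) were called higher. Ndufv1 (0.45) and Ndufv2 (0.42) passed on p but not on fold, and Ndufs8 (0.33) did not pass. The group's median log2 fold change was 0.53. Of the 27 accessory subunits, which surround that core, 13 were called higher with a median of 0.50. In rising order of change these were Ndufa9, Ndufc1, Ndufv3, Ndufb8, Ndufb7, Ndufa10, Ndufb2, Ndufs5, Ndufa13, Ndufa1, Ndufb11, Ndufa3 and Ndufa5, between 0.59 and 0.91. A further 12, among them Ndufb9 (0.50), Ndufb3 (0.48), Ndufb5 (0.46) and the acyl carrier protein Ndufab1 (0.43), were higher by adjusted p but under the fold threshold. Ndufa7 (-0.26) was lower by adjusted p and Ndufb1 (-0.14) did not pass.

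All 4 subunits of complex II (median 0.59), which also serves as an enzyme of the tricarboxylic acid cycle, were higher by adjusted p. Sdhd (0.66), a membrane anchor, and Sdhb (0.61), the iron-sulfur subunit, were called, while Sdhc (0.57) and the flavoprotein Sdha (0.41) stayed under the fold threshold. All 8 Uqcr genes counted for complex III were higher by adjusted p too, with a median of 0.63. Uqcr11, Uqcrq (0.73), the core protein Uqcrc2 (0.70), the Rieske iron-sulfur protein Uqcrfs1 (0.66) and Uqcr10 (0.61) were called, and Uqcrc1 (0.51), Uqcrh (0.43) and Uqcrb (0.24) were not. Complex IV was divided. Its median was 0.19, with Cox5b (0.70), Cox6b2 (0.65), Ndufa4 (0.59) and Cox6b1 (0.59) called higher. Cox7c (-1.17) was called lower, on signals below the array median in both stages. Cox8a (0.47), Cox6c (0.31) and Cox7a2 (0.20) were higher by adjusted p only. Cox4i2, Cox7a2l, Cox8c, Cox4i1, Cox5a, Cox6a1 and Ndufa4l2, between 0.19 and -0.17, did not pass. In complex V the median was 0.32. Atp5o (0.62), which joins the peripheral stalk to the catalytic head, and Atp5d (0.61), of the central stalk, were called higher. Atp5a1, Atp5c1, Atp5g1, Atp5h, Atp5j, Atp5j2, Atp5k, Atp5mpl and Atp5pb were higher by adjusted p only, at 0.21 to 0.47. Atp5md (0.46), Atp5g3 (0.20), Atp5l (0.19), Atp5b (0.08), Atp5e (-0.06) and Atp5g2 (-0.12) did not pass.

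**Figure D3:**
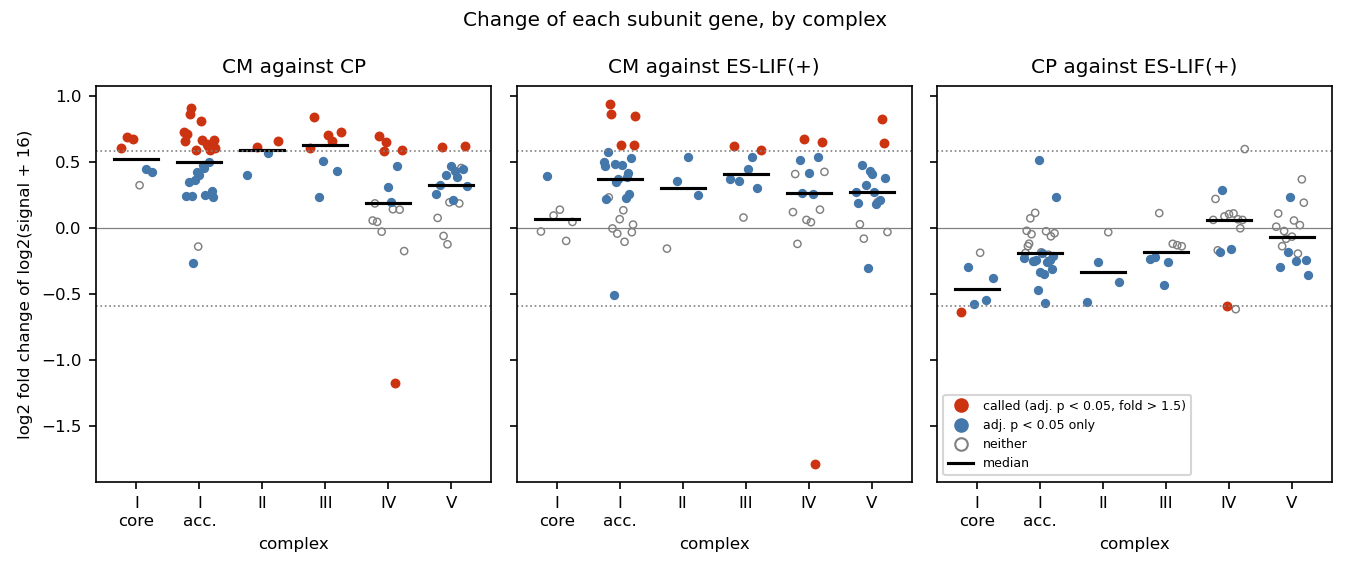
Each point is the log2 fold change of 1 tested subunit gene, by complex, in CM against CP, CM against ES-LIF(+) and CP against ES-LIF(+), with black bars at the medians and dotted lines at a fold of 1.5. Red points were called, blue points passed on adjusted p alone and open points passed neither. Complex medians run from 0.19 to 0.63 in CM against CP. In CP against ES-LIF(+) they run from -0.46 to 0.06, the highest being that of complex IV, which was -0.22 with equal array medians and -0.04 with quantile normalization.

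Ndufa5, an accessory subunit in the peripheral arm of complex I, had the largest increase in CM against CP. Its signal was 3254, 3499 and 3369 in the CM arrays, against 1574, 1836 and 1975 in the CP arrays (log2 fold change 0.91, SE 0.15, adjusted p = 0.000277). All 3 CM arrays stood above every CP array. The ES-LIF(+) arrays read 1413, 1919.6 and 2309 and the ES-LIF(-) arrays 1574, 2114 and 1965, a range that overlapped CP. Its other tested probe set gave 0.94. Uqcr11, a small subunit of complex III whose promoter is printed above, read 5647, 6255 and 6087 in CM, against 3281, 3393 and 3323 in CP (log2 fold change 0.84, SE 0.069, adjusted p = 4.45e-07). The CM and CP arrays did not overlap. The stem cells lay between them, at 4124, 3557 and 3972 in ES-LIF(+) and 3691, 3747 and 3688 in ES-LIF(-).

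Ndufs3, a subunit of the complex I core, read 4757, 5019.5 and 5096 in CM, 3004, 2954 and 3235 in CP, 3461, 3741 and 3668 in ES-LIF(-) and 3717, 3763 and 3799.8 in ES-LIF(+) (CM against CP log2 fold change 0.69, SE 0.065, adjusted p = 1.53e-06). CM lay above all stem cell arrays and CP below them. Ndufs1, the largest subunit of complex I, took a different course. It read 3056, 3221 and 3130.1 in CM, 2074, 1985 and 2095 in CP and 3052, 3088 and 3437 in ES-LIF(+). Here CM overlapped ES-LIF(+), and CP alone stood apart, below every array of the other stages.

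CP against ES-LIF(+) ran the other way. In CP 0 of 77 subunit genes were called higher and 2 were called lower in limma, against 18.7% and 13.3% of all tested genes. Without the fold threshold 4 were higher and 33 lower, against 26.1% and 25.9%, and at an unadjusted p under 0.05 these were 5 and 35. The median log2 fold change was -0.17, a fold of 0.891, where that of all tested genes was 0.04, and 22 of 77 were above 0. The size of this difference followed the scaling. With equal medians 14 were called lower, against 27.4% of all tested genes, or 56 without the fold threshold (median -0.45, all tested genes -0.24). Quantile normalization left 1 called lower, against 16.5% of all tested genes, or 19 without the fold threshold. The members' median was then -0.07 beside -0.09 for all tested genes. The median stayed below 0 under all 3, but under quantile normalization it was not below that of all genes. Among 67 further tested probe sets of 43 of these genes, 52 had the sign of the probe set used, with the deposited values. By adjusted p 2 were higher and 32 lower, and their median was -0.23. With the fold threshold 1 of them was called higher and 7 lower.

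The 2 called genes were Ndufs1 and Cox6b2. For Ndufs1 the difference was -0.63 (SE 0.068, adjusted p = 2.78e-06), and no CP array reached an ES-LIF(+) array. Cox6b2, the complex IV subunit best known from testis, read 552, 615 and 482 in CP, against 709.7, 842 and 963 in ES-LIF(+) (log2 fold change -0.59, SE 0.13, adjusted p = 0.00188). Its groups did not overlap, but both genes lay close to the fold threshold and neither was called without ES-LIF(+) replicate 3 (-0.58 for Ndufs1 and -0.49 for Cox6b2), while 6 members were called lower without ES-LIF(+) replicate 1. In the complex I core 5 of 6 genes were lower by adjusted p and the median was -0.46 (-0.74 with equal medians, -0.34 with quantile normalization). Ndufs7 (-0.58), Ndufv1 (-0.54), Ndufv2 (-0.38) and Ndufs3 (-0.29) joined Ndufs1, and Ndufs8 (-0.19) did not pass.

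Ndufv1 is the flavoprotein that accepts electrons from NADH. It read 3833, 4100.4 and 3848 in CP, against 5379, 5865 and 5958 in ES-LIF(+) (log2 fold change -0.54, SE 0.075, adjusted p = 3.01e-05), and 5189, 5545 and 5355 in CM. The CP arrays lay below all others, and CM overlapped ES-LIF(+). The other Ndufv1 probe sets gave -0.60 and -0.63 in CP against ES-LIF(+), both called lower. Its partner Ndufv2 read 5934, 6083 and 6019.9 in CP, against 7957, 7797 and 7657 in ES-LIF(+) (log2 fold change -0.38, SE 0.055, adjusted p = 5.10e-05). CP was again below every other array, CM among them (7966, 8155 and 8086). The other Ndufv2 probe sets gave -0.97, called lower, and -0.57, not called, in CP against ES-LIF(+). In complex II, Sdha read 3815, 3679 and 3644 in CP, against 5225, 5672 and 5562 in ES-LIF(+) (log2 fold change -0.56, SE 0.077, adjusted p = 2.72e-05), with 4939.5, 5282 and 4583 in CM. Sdha was lowest in CP without overlap, and CM partly overlapped ES-LIF(-) and ES-LIF(+). Another tested Sdha probe set gave -0.21 in CP against ES-LIF(+) and 0.20 in CM against CP, and neither passed on adjusted p. Sdhb read 4614, 4406 and 4228 in CP, against 5507, 5613 and 4733 in ES-LIF(+), and 6638, 7005 and 6649.6 in CM, which stood above all other stages.

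Few genes were higher in CP. Ndufb1 (0.51), Cox6a1 (0.29), Atp5g3 (0.24) and Ndufv3 (0.24) were so by adjusted p, under the fold threshold. With equal medians Ndufb1 in CP against ES-LIF(+) was 0.23, Atp5g3 -0.05 and Ndufv3 -0.04, so that the last 2 changed sign. The largest fitted difference upwards, 0.60 for Ndufa4l2, was not called. Its signals scattered around the array median, at 51.9, 187 and 52 in CP and 27.4, 115 and 31.5 in ES-LIF(+), and the arrays overlapped. Cox6a1, whose promoter holds the NRF1 letters, read 17401, 19708 and 17676 in CP, against 14642, 14361 and 15743 in ES-LIF(+) (log2 fold change 0.29, SE 0.07, adjusted p = 0.00319), and 16838, 17773 and 19205 in CM. CP and CM overlapped each other and lay above the stem cells. With equal medians the difference from ES-LIF(+) was 0.01 in place of 0.29, so that its size rested on the scaling.

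CM against ES-LIF(+) gave 11 of 77 called higher and 1 lower, against 25.7% and 23.9% of all tested genes. Without the fold threshold 48 were higher and 3 lower, against 32.8% and 32.5%. The median log2 fold change was 0.30, a fold of 1.23, beside 0.06 for all tested genes, and 64 of 77 were above 0. With equal medians this direction was lost: 1 was called higher and 3 lower, against 17.4% and 35.1% of all tested genes. The members' median was then -0.02 beside -0.26 for all tested genes, and 38 were above 0. With quantile normalization 19 were called higher and 1 lower, against 21.2% and 27.5% of all tested genes, with a median of 0.38. Compared with the median of all genes the members stood 0.24 higher as deposited and 0.48 higher with quantile normalization. Median centring shifts all genes of an array alike and cannot change this distance. Among 67 further tested probe sets of 43 of these genes, 51 had the sign of the probe set used, with the deposited values. By adjusted p 26 were higher and 7 lower, and their median was 0.12. Of these probe sets 7 belonged to called genes, and 2 of the 7 were called too.

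The 11 called genes were Uqcrq (0.59), Uqcr11 (0.63), Ndufb11 (0.63), Ndufs5 (0.63), Atp5mpl (0.65), Ndufa4 (0.66), Cox6b1, Atp5md, Ndufv3 (0.85), Ndufa5 (0.87) and Ndufa3. Ndufa3, a small membrane-arm subunit of complex I, had the largest difference and was the only one still called with equal medians. It read 8017, 9602 and 8327 in CM, against 4580.3, 4491 and 4376 in ES-LIF(+) (log2 fold change 0.94, SE 0.076, adjusted p = 4.71e-08), and 5045, 4453 and 4693 in CP. Only the CM arrays stood apart, and CP was near ES-LIF(+). The suffix of this probe set marks probes that may match other transcripts, and a second tested probe set without it gave 1.04.

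Cox6b1, on the outer face of complex IV, read 16974, 17564 and 16848 in CM, against 10671, 10236 and 11265 in ES-LIF(+) (log2 fold change 0.68, SE 0.059, adjusted p = 1.07e-07), and 11427, 11293 and 11515 in CP. The CM arrays lay well above the others, and its other probe set gave 0.64. Atp5md, a small subunit that helps ATP synthase form dimers, read 6746, 6148 and 3996 in CM, against 3481, 3173 and 2666 in ES-LIF(+) (log2 fold change 0.83, SE 0.17, adjusted p = 0.000688), and 3683, 3634 and 4774 in CP. CM was above ES-LIF(+) throughout, but CM replicate 3 lay below the highest CP array. Sdhc, a membrane anchor of complex II, read 6504, 6769.5 and 6264 in CM, against 4467, 4201 and 4792 in ES-LIF(+) (log2 fold change 0.54, SE 0.071, adjusted p = 9.04e-06). It passed on p, with CM above every other array, and stayed under the fold threshold.

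The core of complex I did not share in this difference with the deposited values: its median was 0.07, against 0.38 for the accessory subunits, 0.31 for complex II, 0.41 for complex III, 0.27 for complex IV and 0.27 for complex V. Of its 6 genes Ndufs3 alone was higher by adjusted p (0.40). With equal medians the 6 medians were -0.25, 0.06, -0.01, 0.09, -0.05 and -0.05 in the same order, and with quantile normalization 0.21, 0.50, 0.45, 0.54, 0.17 and 0.33. Uqcrc1, a core protein of complex III, showed the least difference in its complex (-0.24 with equal medians), with 9743, 11069 and 12572 in CM, against 10075, 10188 and 11139 in ES-LIF(+) (log2 fold change 0.08, SE 0.09, adjusted p = 0.452), and 7750.2, 8434 and 7187 in CP. The CM and ES-LIF(+) arrays overlapped, and CP lay below both. Uqcrb, a small subunit near the ubiquinone site, read 21583, 22167 and 24615 in CM, against 18649.8, 16429 and 18374 in ES-LIF(+) (log2 fold change 0.35, SE 0.068, adjusted p = 0.000337). Its CM arrays were all higher.

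The members that ran against the rest were few. Ndufa7, an accessory subunit of complex I, read 7516, 7925 and 8896 in CM, 9919.6, 9873 and 9323 in CP and 11594, 12329.5 and 10629.5 in ES-LIF(+). CM differed from ES-LIF(+) by -0.51 (-0.82 with equal medians, SE 0.077, adjusted p = 3.78e-05) and from CP by -0.26 (adjusted p = 0.0166), and CM overlapped neither. Of its 4 other tested probe sets, 3 gave -0.37, -0.50 and -0.62 in CM against ES-LIF(+), and 1 gave 0.08. In CM against CP these gave -0.18, -0.20, -0.06 and 0.19 in the same order, and the one at -0.20 alone passed on adjusted p. Atp5g2 and Atp5g3 encode the same mature c subunit of the ATP synthase rotor behind different import sequences, and they moved apart. Atp5g2 read 7566, 8198 and 8608 in CM, against 10329.6, 9993 and 9643 in ES-LIF(+) (log2 fold change -0.30, SE 0.065, adjusted p = 0.000943), and no CM array reached an ES-LIF(+) array. Atp5g3, whose promoter holds the ERR alpha letters, read 25567, 23688 and 28241 in CM, against 21208, 17281 and 18907 in ES-LIF(+) (log2 fold change 0.43, SE 0.086, adjusted p = 0.000452). All its CM arrays were above the ES-LIF(+) arrays, and the third gene of this family, Atp5g1, gave 0.33. With equal medians the differences of Atp5g2 and Atp5g3 were -0.62 and 0.12.

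Cox7c, a small subunit of complex IV, was the only subunit gene called lower in CM with the deposited values, on dim signals. It read 47.7, 36.8 and 10.5 in CM, 97.3, 80.3 and 77.1 in CP and 164, 123 and 129 in ES-LIF(+). The CM arrays were the lowest and all were below their array's median, and only ES-LIF(+) and ES-LIF(-) held values above it. The probe set thus passed the filter through the stem cell arrays alone, where it was highest. CM against ES-LIF(+) gave -1.78 (SE 0.36, adjusted p = 0.000479). The change of Cox7c in CM against CP was -1.17 (adjusted p = 0.0199) and was not called without CP replicate 1 (adjusted p = 0.0672) or CM replicate 3 (adjusted p = 0.0849). Its other probe set was too dim to test. Ndufb4 of complex I and Cox7b2, a testis form in complex IV, were below the filter. Ndufb4 read 107, 78.6 and 112 in CM, against 68.8, 32.4 and 50.1 in ES-LIF(+), and Cox7b2 27.9, 19.7 and 9.1 in CM, against 96.9, 23.6 and 22 in ES-LIF(+), all below the array median.

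Withdrawal of LIF for 48 h moved few subunit genes. In ES-LIF(-) 1 of 77 was called higher than in ES-LIF(+) and 0 lower in limma, against 4.0% and 3.68% of all tested genes, and without the fold threshold 1 was higher and 3 lower (Ndufb5, Ndufv1 and Sdhc), against 7.95% and 6.34%. At an unadjusted p under 0.05, 2 were higher and 8 lower. The median log2 fold change was -0.04. The gene called was Ndufb1, a small membrane-arm subunit of complex I. It read 587, 471 and 601 in ES-LIF(-), against 372, 271 and 346 in ES-LIF(+) (log2 fold change 0.72, SE 0.14, adjusted p = 0.00404). All ES-LIF(-) arrays were higher, and CP (437, 506 and 481) and CM (463, 408 and 418) were above ES-LIF(+) as well. The lowest fitted value was Cox7c at -0.34, which did not pass.

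Complex IV has isoforms that replace each other between tissues, and 3 muscle forms were left out of the counts above. Each was called higher in CM against ES-LIF(+) and against CP, and none was called in CP or ES-LIF(-) against ES-LIF(+) with the deposited values, while Cox7a1 was called lower in CP with equal medians (-0.64) and with quantile normalization (-0.61). Cox6a2 read 3019, 3026 and 2636 in CM, 239.9, 206 and 159 in CP and 214, 169.5 and 173 in ES-LIF(+) (CM against ES-LIF(+) log2 fold change 3.86, SE 0.19, adjusted p = 2.67e-10). CM stood far above the rest, and CP overlapped ES-LIF(+). Cox8b read 396, 299 and 299.7 in CM, 34.4, 7.6 and 25.8 in CP and 41.6, 4.3 and 6.7 in ES-LIF(+) (CM against ES-LIF(+) log2 fold change 3.53, SE 0.50, adjusted p = 1.93e-05). It was below the array median outside CM, so that this fold depends on the added 16. Cox7a1 read 844, 842 and 777 in CM, 292, 349 and 300.4 in CP and 426, 349 and 443 in ES-LIF(+) (CM against ES-LIF(+) log2 fold change 0.99, SE 0.14, adjusted p = 1.70e-05). CM stood above the other stages, and CP met ES-LIF(+) at its lowest array.

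The forms used in other tissues at the same positions were not called lower in CM against ES-LIF(+) with the deposited, centred or quantile-normalized values. Cox6a1 changed by 0.27 in CM against ES-LIF(+), Cox8a by 0.54 and Cox7a2 by 0.05. Cox8a read 10701, 12598 and 11408 in CM, against 8353, 7509.5 and 7973 in ES-LIF(+), with all CM arrays higher. Cox7a2 read 17325, 17985 and 17632 in CM, against 17683, 16116 and 17503 in ES-LIF(+), and the arrays overlapped. With equal medians Cox6a1 was -0.05, Cox8a 0.22 and Cox7a2 -0.27.

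**Figure D4:**
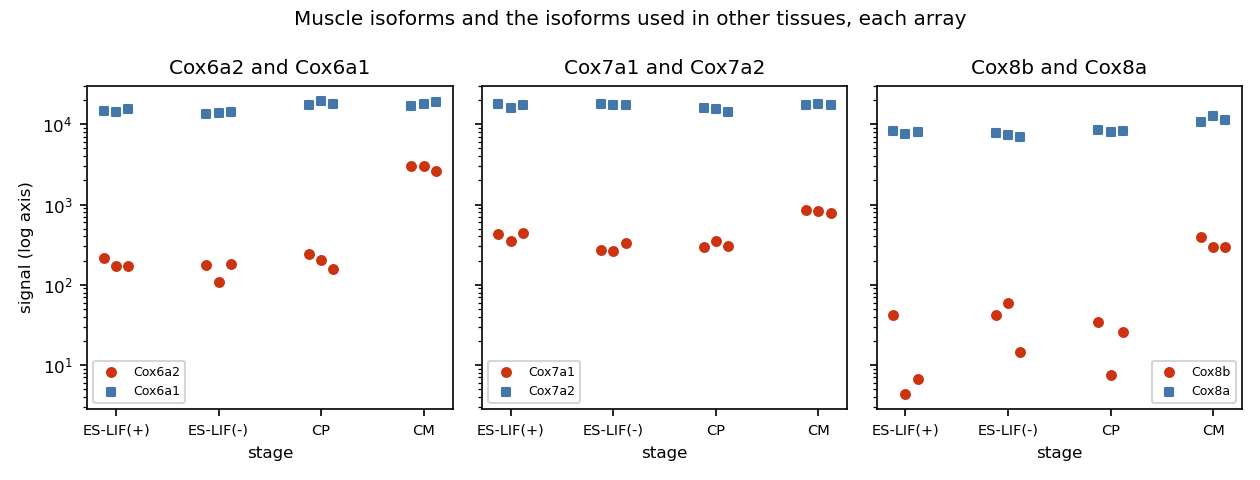
Signal (log axis) of 3 muscle isoforms of complex IV, as red circles, and of the form used in other tissues at the same position, as blue squares, on each of the 12 arrays by stage. The red points of CM stand above those of the other stages in each panel, from 777 upwards for Cox7a1, and the blue points of Cox7a2 lie between 14448 and 17985. Heights of different probe sets are not to be compared with each other.

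Genes that work beside the subunits were counted in the same way, with lists that hold no subunit gene. The first holds enzymes of the tricarboxylic acid cycle, which supplies NADH, with pyruvate dehydrogenase and pyruvate carboxylase. In CM against CP 6 of 18 tested were called higher and 1 lower, against 9.04% and 10.4% of all tested genes, 16 were higher without the fold threshold, and the median was 0.53 (0.49 with equal medians, 0.54 with quantile normalization). Pdha1, of pyruvate dehydrogenase, changed most, with 12608, 12648 and 13399 in CM, against 5821, 5724 and 5896 in CP (log2 fold change 1.15, SE 0.064, adjusted p = 9.00e-09). Its arrays did not overlap. The 1 lower was Pcx (-0.82), pyruvate carboxylase, which refills the cycle. In CP against ES-LIF(+) 12 of the 18 were lower without the fold threshold and 2 were called lower, against 13.3% of all tested genes, with Pdhb at -0.92 and a median of -0.26. With equal medians 8 were called lower (median -0.55) and with quantile normalization 1 (median -0.16), against 27.4% and 16.5% of all tested genes. In CM against ES-LIF(+) 4 were called higher and 0 lower (3 at an unadjusted limma p under 0.05), led by Idh2 (1.25), against 25.7% and 23.9% of all tested genes. The median was 0.13, but with equal medians it was -0.19, with 2 called higher and 3 lower, against 17.4% and 35.1% of all tested genes.

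Assembly factors build the complexes without staying in them. In CM against CP 1 of 42 tested was called higher, Cox20 (1.43), which handles a mitochondrially encoded subunit of complex IV, and 0 lower (4 at an unadjusted limma p under 0.05). The shares of all tested genes were 9.04% and 10.4%. The median was 0.16, beside 0.45 for the subunit genes. In CM against ES-LIF(+) 5 were called higher and 7 lower (median -0.04), where the shares of all tested genes were 25.7% and 23.9%. With equal medians the counts were 2 and 12 (median -0.36), against 17.4% and 35.1% of all tested genes. The changes ran from Cox20 at 1.63 to the complex I factor Ndufaf6 at -1.60. In CP against ES-LIF(+) 2 were called higher and 7 lower (median -0.24), against 18.7% and 13.3% of all tested genes. These counts were 0 and 17 with equal medians (median -0.52), against 12.1% and 27.4% of all tested genes. With quantile normalization they were 2 and 11 (median -0.27), against 14.5% and 16.5%. Electron carriers, ubiquinone synthesis and nucleotide exchange gave 2 of 21 called higher in CM against CP and 0 lower (1 at an unadjusted limma p under 0.05), with a median of 0.18. The shares of all tested genes were 9.04% and 10.4%, so that the share called higher was near that of all genes. The 2 called were Coq9 (1.07), for ubiquinone synthesis, and Etfdh (1.0), which passes electrons from fatty acid oxidation to ubiquinone. The ADP/ATP exchanger of heart and muscle, Slc25a4, read 29495, 25698 and 29142 in CM, against 13492, 12871 and 14523 in ES-LIF(+) (log2 fold change 1.04, SE 0.085, adjusted p = 5.01e-08), with 18619, 22727 and 19043 in CP. The 3 stages did not overlap.

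Among 20 tested regulators of mitochondrial biogenesis, 5 were called higher and 12 lower in CM against ES-LIF(+), against 25.7% and 23.9% of all tested genes, so that the share called higher was near that of all genes. The median was -0.65. With equal medians 3 were called higher and 14 lower (median -0.97), against 17.4% and 35.1% of all tested genes. With quantile normalization the counts were 3 and 10 (median -0.63), against 21.2% and 27.5%. The higher ones were the coactivators Ppargc1a (1.87) and Ppargc1b (0.93), the estrogen-related receptors Esrrg (1.55) and Esrra (0.82), and Perm1 (1.01), a muscle partner of these receptors. Of these, Esrra and Perm1 were not called with equal medians or quantile normalization. Among the lower ones were Nrf1 (-1.27), which encodes nuclear respiratory factor 1, Gabpa (-1.47), the DNA-binding part of GABP, Yy1 (-0.59, not called with quantile normalization), Tfam (-1.18), which packages mitochondrial DNA, and Esrrb (-3.59), which is also a pluripotency marker.

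Nrf1 read 468, 352 and 518 in CM, 670.2, 682 and 700.5 in CP and 1272, 928 and 1077 in ES-LIF(+). The 3 stages did not overlap and were in descending order from ES-LIF(+) to CM, an order that Gabpa shared with 775, 717 and 756 in CM, 1207, 1108 and 1369 in CP and 2101, 2097 and 2123 in ES-LIF(+). Tfam followed it too, with 1514, 1346 and 1391 in CM, 1943, 1845 and 1976 in CP and 3032, 3234 and 3414 in ES-LIF(+). Nrf1, Gabpa and Tfam were called lower in CM against ES-LIF(+) under all 3 scalings. The mean of the subunit genes was highest, with the deposited values, in the stage where these 3 genes were lowest. Relative to the array median that mean was 5.30 in CM and 5.34 in ES-LIF(+). A link between regulators and subunit genes was not tested.

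Ppargc1b encodes the coactivator PGC-1beta. It read 517, 463 and 536 in CM, 72.6, 178 and 134 in CP, 328, 230.1 and 217 in ES-LIF(-) and 269.7, 231 and 272 in ES-LIF(+). It was called lower in CP against ES-LIF(+) (-0.99) and higher in CM against CP (1.92), the stage order of the subunit genes, and in the list it alone was called both ways. Ppargc1a, which encodes PGC-1alpha, read 322, 349 and 289 in CM, 79.4, 125 and 152 in CP and 125, 45 and 72.9 in ES-LIF(+). Only CM stood apart, and the other stages lay near the array median or below it. In CM against CP 2 of 20 regulators were called higher and 5 lower (median -0.21), against 9.04% and 10.4% of all tested genes. The share called higher was thus near that of all genes.

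**Figure D5:**
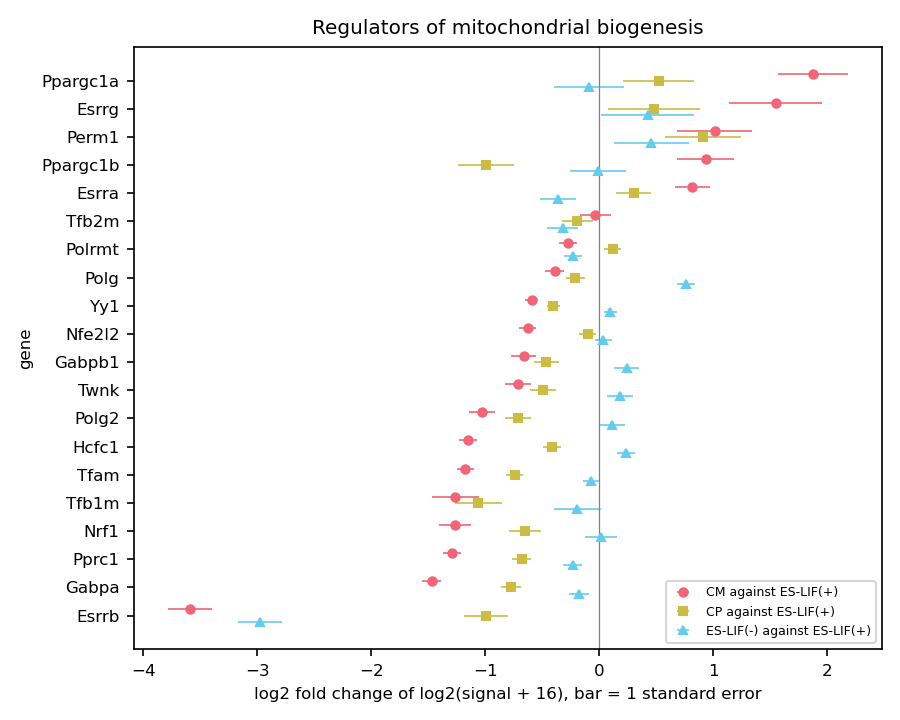
Log2 fold change with 1 standard error of 20 tested regulators of mitochondrial biogenesis in CM (circles), CP (squares) and ES-LIF(-) (triangles), each against ES-LIF(+) (zero line, 3 arrays a stage). In CM 5 are called higher, from Ppargc1a at 1.87 down to Esrra at 0.82, and Gabpa, Nrf1 and Tfam lie between -1.47 and -1.18.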

How the data were processed

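RNA of 3 samples of each of 4 stages was hybridized to Affymetrix Mouse 430 2.0 arrays, and the study's methods state that each condition was sampled independently 3 times. The deposited values are linear signal intensities that the authors made with MAS5, scaled to a common trimmed mean. All 45037 probe sets other than 64 controls were transformed to log2(signal + 16), which understates changes of dim genes, and the 26083 above their array's median on at least 3 of 12 arrays were fitted with limma 3.58.1 (R 4.3.3) over all stages, with an intensity trend and Benjamini-Hochberg adjustment over all probe sets tested. Calls combined a fold of over 1.5 with an adjusted p below 0.05. The fit was tested on simulated data before use.

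Genes were named from GEO's platform annotation: 34945 probe sets name 1 gene, 932 several and 9160 none, and 165 name a subunit gene alone. The gene's brightest probe set by mean log2 value stood for it. MAS5 signals give no read depth, and the number of arrays limits the precision.

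The genes and the lists beside them were chosen with earlier results of these data known. Values of each array are given for the genes with the largest change up and down in CM against ES-LIF(+) and the brightest gene of each complex, for the genes with the largest change in each other comparison, and for genes below the filter. Others were named after their values were seen. Alternatives were median centring, quantile normalization, other pseudocounts, filters and probe set rules, a fit without the trend, the one-way analysis of variance that the methods name, replicate and submission blocks, fits of 2 stages and leaving out each array.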

Additional observations from a re-analysis of the deposited data

How the results depend on the processing

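The direction of CM against ES-LIF(+) rested on the scaling. With median centring 1 subunit gene was called higher and 3 lower, against 17.4% and 35.1% of all tested genes, with a median log2 fold change of -0.016. With quantile normalization 19 were called higher, against 21.2%, with a median of 0.38. In CP against ES-LIF(+), median centring gave 14 called lower, against 27.4% of all tested genes, and a median of -0.45. Quantile normalization gave 1 called lower, against 16.5%, and a median of -0.071. In CM against CP the median was 0.41 with median centring. Without the fold threshold the counts higher and lower were 48 and 3 in CM against ES-LIF(+), 4 and 33 in CP against ES-LIF(+), 60 and 2 in CM against CP, and 3 were lower in ES-LIF(-) against ES-LIF(+). With genes above the median on all 12 arrays, and with the mean over a gene's probe sets, 0 were called lower in CM against either stage. The first setting leaves Cox7c out. The mean over probe sets also gave 6 called lower and a median of -0.13 in CP against ES-LIF(+). A pseudocount of 64 gave a median of 0.27 in CM against ES-LIF(+) and 1 called lower in CP. The submission range as a block gave 4 lower in CP, and a fit of only CM and CP called 0 lower in CM. The causes were not tested.

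Leaving out 1 array at a time, the median was 0.26 to 0.31 in CM against ES-LIF(+) and 0.42 to 0.45 in CM against CP. In CP against ES-LIF(+), 0 to 1 were called higher and 0 to 6 lower, with 0 lower without ES-LIF(+) replicate 3 and 6 without ES-LIF(+) replicate 1. In CM against CP, 0 to 1 were called lower, with 0 without CP replicate 1 or CM replicate 3. The main fit did not pair the samples by replicate number, and the 18 correlations of same-numbered deviations lay between -0.06 and 0.10. Between ES-LIF(+) and ES-LIF(-) all 3 arrays correlated best with their own number (0.066 to 0.10). The same held between CP and CM (0.019 to 0.042), and for 8 of the 18 in all. With the replicate block 69 genes differed across the stages, against 71 without it, and no gene's call changed. The methods' analysis of variance gave 67. No called change turned its direction under any of these settings. The 3 arrays a stage, without counts or detection calls, limit what dim genes such as Cox7c and Ndufa4l2 can show.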
